A study of Homo sapiens with 4 samples.

Results

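Mitochondrial complex I (NADH:ubiquinone oxidoreductase) was examined through the mRNA of 45 nuclear genes, 38 encoding its subunits and 7 encoding NDUFAF assembly factors, among 57979 genes in the table. The members were all genes whose symbols begin with NDUFA, NDUFB, NDUFC, NDUFS, NDUFV, NDUFAF or NDUFAB and which encode a protein of the complex or a factor that builds it. Pseudogenes, NDUFA4L2 and the readthrough gene NDUFC2-KCTD14 were left out. NDUFAF8 stands in the table under its older symbol C17orf89 and was kept apart as a near name.

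Complex I is the entry point of electrons from NADH into the respiratory chain. Its L-shaped body has a matrix arm, in which NADH is oxidised in the N module and ubiquinone is reduced in the Q module, and a membrane arm that pumps protons. A conserved core does the chemistry, a larger set of accessory subunits surrounds it, and assembly factors hold the intermediates together and are absent from the finished enzyme.

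Polyadenylated RNA was sequenced from cells labelled wild-type (WT) and from cells with the thioredoxin-domain gene TXNDC9 targeted by CRISPR-Cas9 (TXNDC9-KO). Each group had 2 libraries. The labels give the cells as HepG2, a human liver cancer line, grown in DMEM with serum. The study's legends describe cells sorted by FACS for infection with Cas9 and guide RNA, or with vector alone. Whether the WT libraries came from vector cells is not stated. The legends also speak of independent experiments for RNA-seq values. How the 2 libraries of each group relate to such experiments is not stated, nor whether the sorted cells were 1 clone. The p-values therefore measure only the spread between these libraries, which may be technical. In bulk RNA of this kind, fewer cells of a type and less RNA per cell cannot be told apart.

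The hepatocyte markers ALB, AFP, APOA1, APOA2, TTR, SERPINA1 and FGB were near 0 in these cells, with no value above 0.449 FPKM (fragments mapped to a gene per unit of transcript length and of library size) in any library. Their sum was 0.396 and 0.716 FPKM in WT and 0.166 and 0.291 FPKM in TXNDC9-KO, so the labelled cell type was not borne out by its defining markers and the cells are called here by their labels only. Among markers of other cells, COL1A1 lay between 17.5 and 31.5 FPKM, COL1A2 was listed at 0 in all 4 libraries, and PTPRC, PECAM1 and VWF stayed at or under 0.261 FPKM. TXNDC9 itself was 35.1 and 37.3 FPKM in WT and 21.9 and 27.6 FPKM in TXNDC9-KO. Its log2 difference of −0.55 (SE 0.14) did not pass the threshold (adjusted p = 0.0145, limma with Benjamini-Hochberg adjustment), and it stood at 0.12 after the libraries were rescaled to the same sum. By western blot, the study reports less TXNDC9 protein in its targeted HepG2 cells, and protein was not measured in these data. The FPKM of all genes summed to 805816 and 971102 in WT but to 535973 and 568279 in TXNDC9-KO. The depth in reads is unknown.

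The mRNA of most complex I genes was lower in the TXNDC9-KO libraries, with estimates under 0 for 42 of 45 on the deposited scale and for 31 after every library was rescaled to the same sum (TPM scaling). Called genes had an adjusted p under 0.01 in limma with Benjamini-Hochberg adjustment over 13246 genes and a difference of at least 2-fold on log2(FPKM + 0.1). By this rule 17 of 38 subunits and 2 of 7 assembly factors were lower, beside 15.3% of all genes tested. A single subunit, NDUFS1, was higher, beside 14.2% of all genes tested, and the other 25 members were not called. All 45 members passed the filter of an average above 1 FPKM. On adjusted p alone, 32 members were lower and 1 was higher, beside 27.1% and 23.7% of all genes tested. Both TXNDC9-KO values lay under both WT values in 41 members, beside 45.9% of all genes tested. They lay above both in NDUFS1 and NDUFAF7, beside 40.1%, and the groups overlapped in NDUFA5 and NDUFB6. The median log2 difference was −0.95 over subunits and −0.85 over assembly factors, beside −0.088 over all genes tested.

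These counts depend on the scale given to each library. With TPM scaling, the median of all genes tested rose by 0.67, calls over all genes went from 2021 lower and 1885 higher to 447 lower and 4380 higher, and the members called lower fell to 6 subunits and 0 assembly factors. The subunit median was then −0.27 and the factor median −0.18. Relative to the median of all genes, which this rescaling does not touch for genes well above 0 FPKM, 41 of 45 members were lower, and the member median lay at −0.82. The calls also needed both TXNDC9-KO libraries. Without either of them limma called no member and no other gene of the whole table. Without WT replicate 1, 22 subunits and 4 assembly factors were called lower, beside 19.9% of all genes. Without WT replicate 2, 13 and 2 were called lower, beside 11.8% of all genes, and NDUFS1 was no longer called higher.

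**Figure D1:**
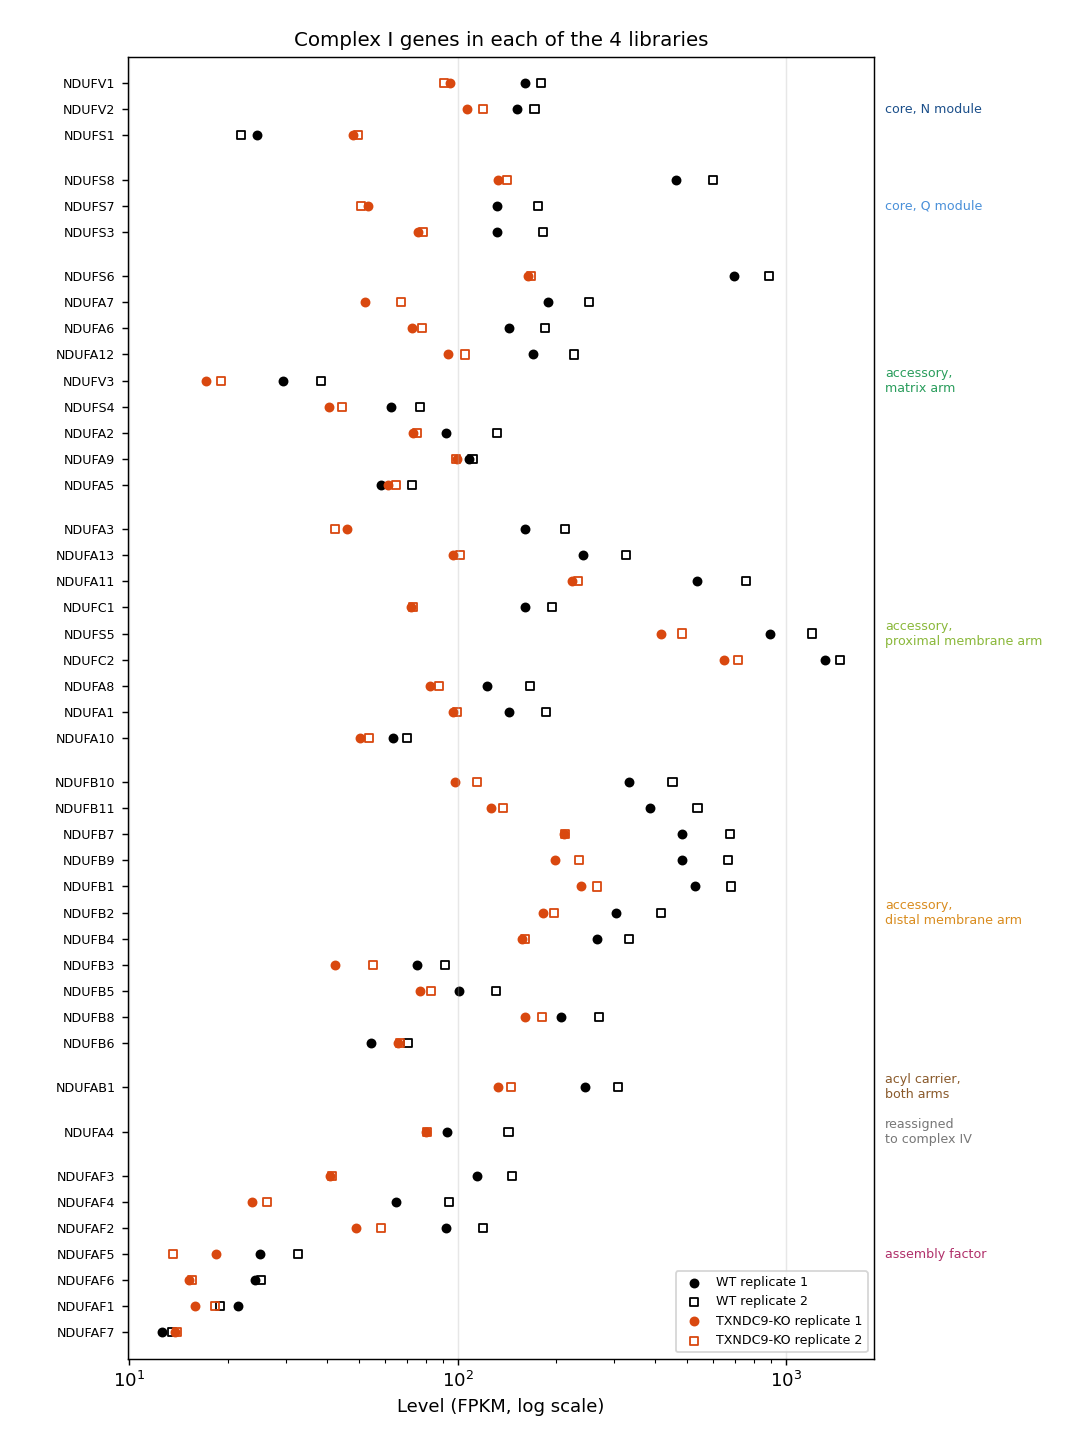
Level of 44 of the 45 genes in the 4 libraries, in FPKM on a log scale, grouped by place in the complex; circles are replicate 1 and open squares replicate 2, black for WT and orange for TXNDC9-KO. On this deposited scale the orange symbols lie left of both black symbols in 40 of the genes shown, and right of both in NDUFS1 and NDUFAF7.

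The median subunit stood at 160 and 190 FPKM in WT and at 94.0 and 95.0 FPKM in TXNDC9-KO. The 38 subunits together made up 1.23% and 1.32% of the FPKM sum in WT and 0.887% and 0.906% in TXNDC9-KO. Their share of the library sum, which does not depend on library scale, was therefore lower in both TXNDC9-KO libraries than in either WT library. Assembly factors were scarcer throughout, with medians of 25.0 and 32.7 FPKM in WT and 18.3 and 18.2 FPKM in TXNDC9-KO. Median subunit level exceeded median factor level 6.40 and 5.81 times in WT and 5.13 and 5.22 times in TXNDC9-KO. The factor median was the value of a single gene, NDUFAF1 in TXNDC9-KO replicate 2 and NDUFAF5 in the other libraries. Subunits and factors also differed in median canonical transcript length, 693.5 nt against 1795 nt, and length moved with the group difference, as given further on. Within the WT group, replicate 2 lay above replicate 1 in 43 of 45 members, by a median of 0.38 on the log2 scale, against 0.090 over all genes tested. The TXNDC9-KO replicates differed by a median of 0.093 over the members. The part of this WT gap in the results was not tested, beyond the values without each library given above.

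The difference between groups varied from subunit to subunit, though less than over all genes tested. Across the 38 subunits, the SD of the log2 difference between groups was 0.66. That of the difference between replicates was 0.15 in WT and 0.10 in TXNDC9-KO. Over all genes tested the same SDs were 1.10 between groups, 0.53 in WT and 0.42 in TXNDC9-KO. The order of levels was largely kept, with a Spearman rho of 0.887 between mean WT and mean TXNDC9-KO levels over the 45 genes, which share their libraries. NDUFC2 and NDUFS5 were the first and second most abundant members by FPKM in both groups. NDUFS6 went from place 3 in WT to place 9 in TXNDC9-KO, NDUFA3 from 18 to 37, and NDUFS1 from 43 to 36.

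The core of the matrix arm held both the largest rise and some of the deepest falls. In the N module, NDUFS1, a core protein that carries several iron-sulfur clusters, was 24.6 and 21.8 FPKM in WT and 48.1 and 49.6 FPKM in TXNDC9-KO. Both TXNDC9-KO libraries were about equal and well above both WT libraries. The log2 difference was 1.07 (SE 0.11, 95% interval 0.81 to 1.34, adjusted p = 0.000732), and the call did not hold after a correction for transcript length and GC content, described further on. NDUFV1, which binds the flavin that takes electrons from NADH, was 160 and 180 FPKM in WT and 94.6 and 91.0 FPKM in TXNDC9-KO. The groups did not overlap, and the log2 difference of −0.87 (SE 0.12, adjusted p = 0.00153) was short of 2-fold. NDUFV2, its iron-sulfur partner, was 152 and 171 FPKM in WT and 107 and 119 FPKM in TXNDC9-KO, a log2 difference of −0.52 (SE 0.13, adjusted p = 0.0135). The estimate for NDUFV2 was above 0 (0.16) after rescaling to TPM. Its exons overlap by 771 bases those of an unnamed gene on the same strand (ENSG00000265257), listed at 86.2 and 99.5 FPKM in WT and 24.8 and 20.1 FPKM in TXNDC9-KO, so the division of reads between them is uncertain.

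In the Q module, NDUFS8, NDUFS7 and NDUFS3 were called lower among the core subunits. NDUFS8, which carries a pair of the iron-sulfur clusters near the quinone site, was 462 and 602 FPKM in WT and 133 and 141 FPKM in TXNDC9-KO. It kept 25.8% of its WT mean, and the log2 difference was −1.94 (SE 0.16, adjusted p = 0.000572). NDUFS7, which passes electrons to quinone, was 132 and 175 FPKM in WT and 53.4 and 50.7 FPKM in TXNDC9-KO. Its log2 difference was −1.55 (SE 0.16, adjusted p = 0.000768), with no overlap of the groups. NDUFS3, a structural core subunit of the Q module, was 132 and 182 FPKM in WT and 75.6 and 78.3 FPKM in TXNDC9-KO, a log2 difference of −1.01 (SE 0.17, adjusted p = 0.00353). The call of NDUFS3 lay at the 2-fold limit and was lost with a pseudocount of 1 (−0.999) and with the length and GC correction (−0.39, adjusted p = 0.0410).

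Core subunits made in the mitochondrion could not be set beside these. All 7 MT-ND genes, like the other rows of the mitochondrial genome (37 in all), were listed at 0 in every library, which says nothing of their level in the cells.

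**Figure D2:**
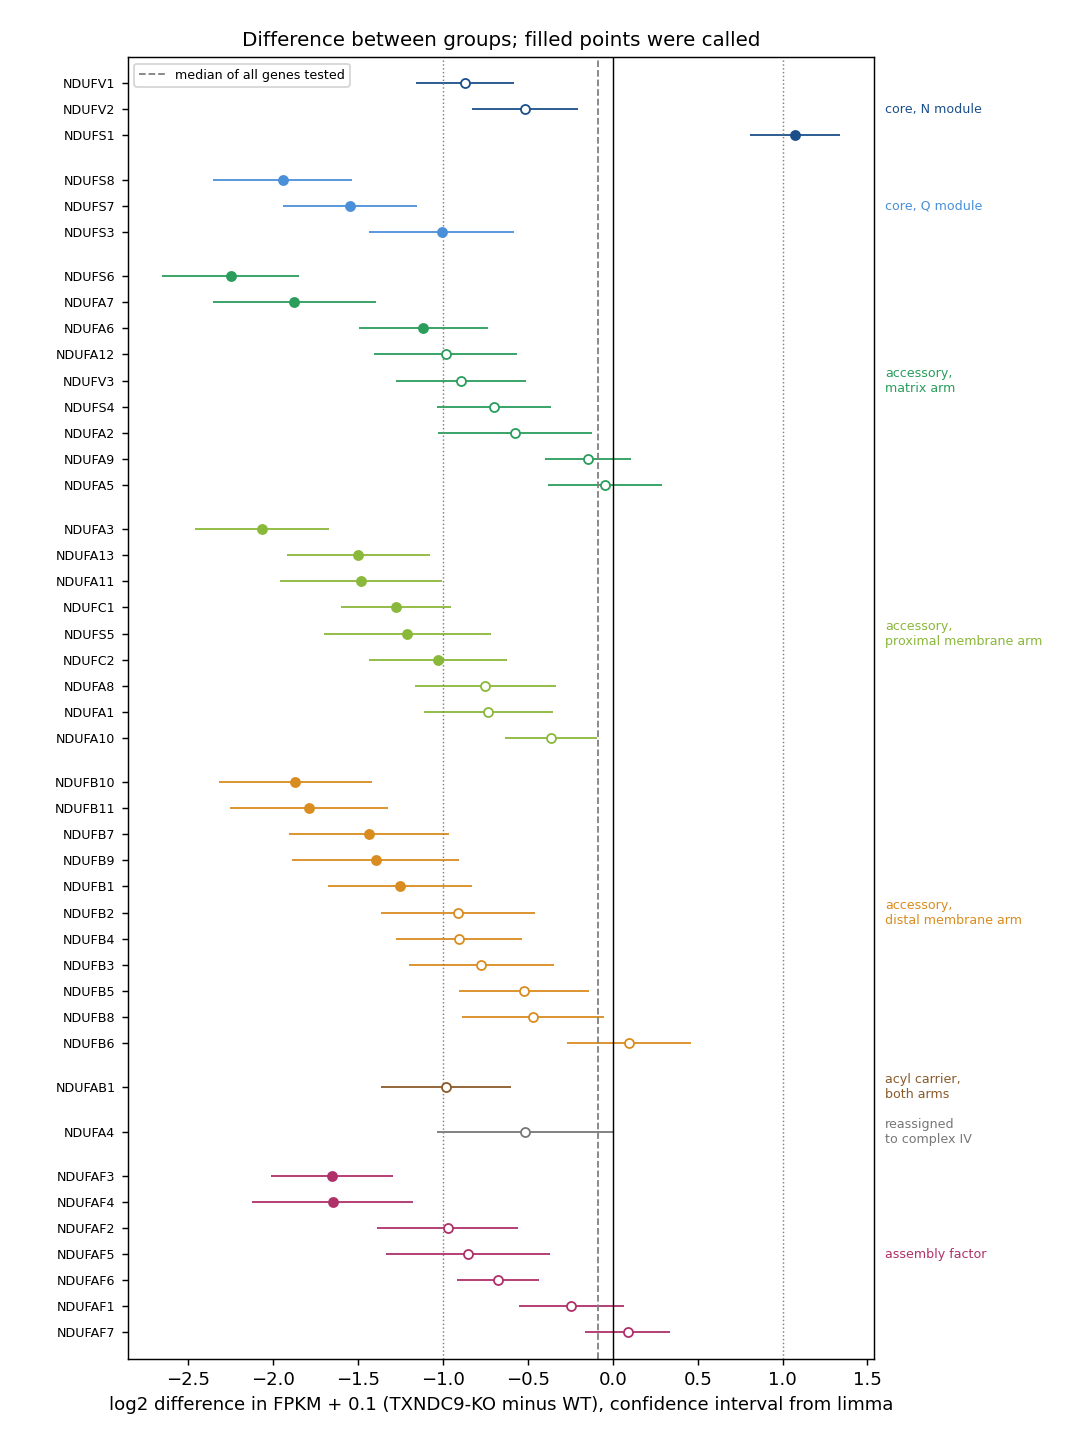
Log2 difference between groups (TXNDC9-KO minus WT) of 44 of the 45 genes, each with its 95% interval from limma, by class; filled points were called, the dashed line is the median of all genes tested and the dotted lines mark 2-fold. NDUFS1 is the only point right of the upper 2-fold line, and 19 filled points lie left of the lower one; rescaling to TPM turns 10 of the estimates shown from under 0 to above 0.

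Of the 9 accessory subunits of the matrix arm, 3 were called lower, 6 passed the p threshold, and the median log2 difference was −0.89. Of all genes tested, 15.3% were called lower and 27.1% were lower by adjusted p alone. The class had a median canonical transcript of 669 nt, and 34.2% of all genes under 1000 nt were called lower. NDUFS6, a small zinc-binding subunit of the N module, was 694 and 891 FPKM in WT and 163 and 167 FPKM in TXNDC9-KO. Both TXNDC9-KO values lay far under both WT values, at 20.8% of the WT mean. Its log2 difference of −2.25 (SE 0.16, 95% interval −2.65 to −1.85, adjusted p = 0.000512) was the largest among the 45 members. The gene lies on chromosome 5 from 1801407 to 1816048 on the plus strand of hg38, with 4 exons in its canonical transcript. NDUFA7 was 189 and 252 FPKM in WT and 52.3 and 67.3 FPKM in TXNDC9-KO, a log2 difference of −1.88 (SE 0.19, adjusted p = 0.000779). Its exons overlap by 68 bases those of RPS28, a ribosomal protein gene on the opposite strand. RPS28 was 1277 and 2080 FPKM in WT and 372 and 368 FPKM in TXNDC9-KO. Whether reads were assigned by strand is not given in the sources used here. On the same strand, NDUFA7 exons overlap by 452 bases those of an unnamed gene (ENSG00000167774). That gene was listed at 0 in both WT libraries and at 9.44 and 0.0116 FPKM in TXNDC9-KO, so the division of reads between them is uncertain.

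At the other end of the same class, NDUFA9, which binds a nucleotide near the quinone site, was 108 and 111 FPKM in WT and 99.5 and 99.0 FPKM in TXNDC9-KO. The log2 difference was −0.14 (95% interval −0.40 to 0.11, adjusted p = 0.252). NDUFA5, a small matrix arm subunit, was 58.3 and 72.4 FPKM in WT and 61.3 and 64.7 FPKM in TXNDC9-KO. The groups overlapped, with a log2 difference of −0.045 (95% interval −0.38 to 0.29, adjusted p = 0.785). Both estimates were above 0 after rescaling to TPM, at 0.54 for NDUFA9 and 0.63 for NDUFA5, and both genes were called lower with the length and GC correction, at −1.08 and −1.04. In this class NDUFA6 was also called lower (−1.11), while NDUFV3 (−0.89) and NDUFS4 (−0.70), whose loss causes Leigh syndrome in patients, passed the p threshold short of 2-fold, and NDUFA2 (−0.58) did not pass it.

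NDUFA12 and the assembly factor NDUFAF2 are paralogs, the factor holding the place that NDUFA12 takes late in assembly. NDUFA12 was 170 and 226 FPKM in WT and 93.5 and 105 FPKM in TXNDC9-KO. NDUFAF2 was 92.0 and 120 FPKM in WT and 49.0 and 58.4 FPKM in TXNDC9-KO. The log2 differences were close, −0.98 (SE 0.17, adjusted p = 0.00364) for NDUFA12 and −0.97 (SE 0.17, adjusted p = 0.00369) for NDUFAF2, and both were just short of 2-fold.

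The proximal membrane arm is the part next to the matrix arm. Of its 9 accessory subunits 6 were called lower, beside 15.3% of all genes tested, and the median log2 difference was −1.21. The class had a median canonical transcript of 696 nt, and 34.2% of all genes under 1000 nt were called lower. NDUFA3, a small membrane subunit, was 161 and 212 FPKM in WT and 46.1 and 42.2 FPKM in TXNDC9-KO. It stood at 23.7% of its WT mean, with a log2 difference of −2.06 (SE 0.16, adjusted p = 0.000538). NDUFA13, also known as GRIM-19, was 241 and 326 FPKM in WT and 96.8 and 102 FPKM in TXNDC9-KO, a log2 difference of −1.50 (SE 0.17, adjusted p = 0.000978). NDUFS5, a subunit on the intermembrane-space face, was 894 and 1200.4 FPKM in WT and 416 and 483 FPKM in TXNDC9-KO, and its log2 difference was −1.21 (SE 0.20, adjusted p = 0.00313). The groups were apart in all 3 of these genes.

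The smallest differences in the proximal arm were those of NDUFA10 and NDUFA1. NDUFA10, which has a nucleoside kinase fold, was 63.7 and 70.3 FPKM in WT and 50.4 and 53.6 FPKM in TXNDC9-KO, a log2 difference of −0.36 (SE 0.11, adjusted p = 0.0270). NDUFA1, an X-linked membrane subunit needed for assembly, was 143 and 186 FPKM in WT and 96.7 and 99.7 FPKM in TXNDC9-KO, a log2 difference of −0.73 (SE 0.15, adjusted p = 0.00740). Of the rest, NDUFA11 (−1.48), NDUFC1 (−1.27) and NDUFC2 (−1.03) were called lower, and NDUFA8 (−0.75) was not. NDUFC2 shares exons with the readthrough gene NDUFC2-KCTD14, listed at 87.5 and 216 FPKM in WT and 143 and 113 FPKM in TXNDC9-KO, so the division of reads between them is uncertain.

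In the distal membrane arm, at the far end of the proton-pumping part, 5 of 11 accessory subunits were called lower. Of all genes tested 15.3% were called lower, as were 34.2% of those with canonical transcripts under 1000 nt. The class had a median canonical transcript of 651 nt and a median log2 difference of −0.91. NDUFB10 was 334 and 452 FPKM in WT and 98.5 and 115 FPKM in TXNDC9-KO, a log2 difference of −1.87 (SE 0.18, adjusted p = 0.000699). NDUFB11, an X-linked subunit, was 385 and 538 FPKM in WT and 126 and 138 FPKM in TXNDC9-KO, a log2 difference of −1.79 (SE 0.19, adjusted p = 0.000809). Both genes stood below 30% of their WT means in TXNDC9-KO, at 27.1% and 28.6%. NDUFB7 (−1.43), NDUFB9 (−1.39) and NDUFB1 (−1.25) were the other 3 called.

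The estimates nearest 0 in this arm were those of NDUFB6 and NDUFB8. NDUFB6 was 54.5 and 70.7 FPKM in WT and 65.9 and 66.8 FPKM in TXNDC9-KO. Its groups overlapped, and the log2 difference was 0.096 (95% interval −0.27 to 0.46, adjusted p = 0.587), −0.091 without WT replicate 1. NDUFB8 was 206 and 270 FPKM in WT and 160 and 181 FPKM in TXNDC9-KO, a log2 difference of −0.47 (SE 0.17, adjusted p = 0.0485) that was above 0 both after rescaling to TPM (0.21) and after the length and GC correction (0.12). NDUFB2 (−0.91), NDUFB4 (−0.90) and NDUFB3 (−0.77) passed the p threshold short of 2-fold, and NDUFB5 (−0.52) did not pass it.

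Among genes counted with the subunits by name, 2 have a place of their own. NDUFAB1, the mitochondrial acyl carrier protein, sits in both arms and also serves fatty acid synthesis. It was 244 and 308 FPKM in WT and 133 and 146 FPKM in TXNDC9-KO, a log2 difference of −0.98 (SE 0.15, adjusted p = 0.00267) just short of 2-fold. NDUFA4, now assigned to complex IV, was 92.8 and 143 FPKM in WT and 80.4 and 80.7 FPKM in TXNDC9-KO. The WT libraries were far apart for NDUFA4, and its log2 difference of −0.52 (95% interval −1.04 to 0.0054, adjusted p = 0.0722) did not pass the threshold.

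The 7 assembly factors split into a pair that was called lower and 5 that were not, beside 15.3% of all genes tested called lower. NDUFAF3 and NDUFAF4 bind each other and act early, on the Q module. NDUFAF3 was 114 and 147 FPKM in WT and 41.0 and 41.4 FPKM in TXNDC9-KO, and NDUFAF4 was 64.9 and 94.4 FPKM in WT and 23.7 and 26.2 FPKM in TXNDC9-KO. Both kept under 32% of their WT means, at 31.5% and 31.3%. The log2 difference was −1.65 for each, with an SE of 0.14 and an adjusted p of 0.000595 for NDUFAF3 and an SE of 0.19 and an adjusted p of 0.00102 for NDUFAF4. NDUFAF3 overlaps by 101 bases, on the opposite strand, exons of DALRD3, which was 55.3 and 71.9 FPKM in WT and 19.7 and 21.3 FPKM in TXNDC9-KO.

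NDUFAF5 hydroxylates an arginine of NDUFS7. It was 25.0 and 32.7 FPKM in WT and 18.3 and 13.6 FPKM in TXNDC9-KO, a log2 difference of −0.85 (SE 0.19, adjusted p = 0.0102) that narrowly missed the p threshold. NDUFAF6, which acts early on the membrane part next to the Q module, was 24.1 and 25.1 FPKM in WT and 15.2 and 15.5 FPKM in TXNDC9-KO. The replicates of NDUFAF6 were close in both groups, and its log2 difference was −0.68 (SE 0.10, adjusted p = 0.00191), or 0.0012 after rescaling to TPM. NDUFAF1, a member of the membrane arm assembly complex, was 21.4 and 18.9 FPKM in WT and 15.8 and 18.2 FPKM in TXNDC9-KO. Its log2 difference was −0.24 (95% interval −0.55 to 0.065, adjusted p = 0.131). NDUFAF7, a mitochondrial arginine methyltransferase, was 12.6 and 13.5 FPKM in WT and 13.7 and 13.9 FPKM in TXNDC9-KO, with a log2 difference of 0.089 (95% interval −0.16 to 0.34, adjusted p = 0.465).

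Members were also placed relative to the median subunit of the same library, a measure that library scale cannot move. Centring on the median of these same subunits puts members on both sides by construction. The counts below therefore describe places within the complex, and not a direction of change. Both TXNDC9-KO values lay under both WT values in 18 members and above both in 16, and they overlapped in 11. NDUFS6 stood lowest by this measure, with a relative log2 difference of −1.37, and NDUFS1 highest, at 1.96, followed by NDUFB6 at 0.98 and NDUFAF7 at 0.97. No test was run on this measure, and no share over all genes was taken.

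Transcript length and base composition moved with the differences, in the members as in all genes. Over the 45 members, which share the 4 libraries, the log2 difference had a Spearman rho of 0.48 with canonical transcript length and −0.63 with GC content. With WT level the rho was −0.68. Over all genes tested the values were 0.49, −0.46 and −0.48. WT level is itself a term of the difference, which can by construction pull its rho under 0. The log2 gap between the WT libraries, replicate 2 minus replicate 1, also moved with these measures over the members. Its rho was −0.41 with length, 0.34 with GC content and 0.43 with WT level. The link of this gap to the group difference was not tested. The 28 members with a canonical transcript under 1000 nt had 16 called lower and a median of −1.23, and 34.2% of all genes of that length were called lower, with a median of −0.84. Of the 7 members of 4000 nt or more, 0 were called lower, NDUFS1 was called higher and the median was −0.36, while 4.13% of all genes of that length were called lower and 30.6% higher, with a median of 0.61. In both classes the member median lay under that of all genes of like length, a description with no test.

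NDUFS1 has by far the longest canonical transcript of the 45, at 11660 nt. After each library was corrected for transcript length and GC content with a loess curve, its log2 difference was −0.039 (adjusted p = 0.753). In that fit 42 of 45 members were under 0, 14 were called lower and 0 higher, beside 8.70% and 5.99% of all genes. Of the 19 members called lower without the correction, 9 were called with it, among them NDUFS6 (−1.65), NDUFA3 (−1.36), NDUFS8 (−1.14) and NDUFAF4 (−1.95). A further 5 members were called only with it, all with transcripts of more than 4000 nt, namely NDUFAF5 (−1.66), NDUFV3 (−1.42), NDUFB5 (−1.16), NDUFA9 (−1.08) and NDUFA5 (−1.04). The other 10 calls were lost, those of NDUFAF3 (−0.94), NDUFS7 (−0.72) and NDUFS3 (−0.39) among them. The length used is that of 1 annotated transcript, and the isoforms expressed in these cells were not measured.

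**Figure D3:**
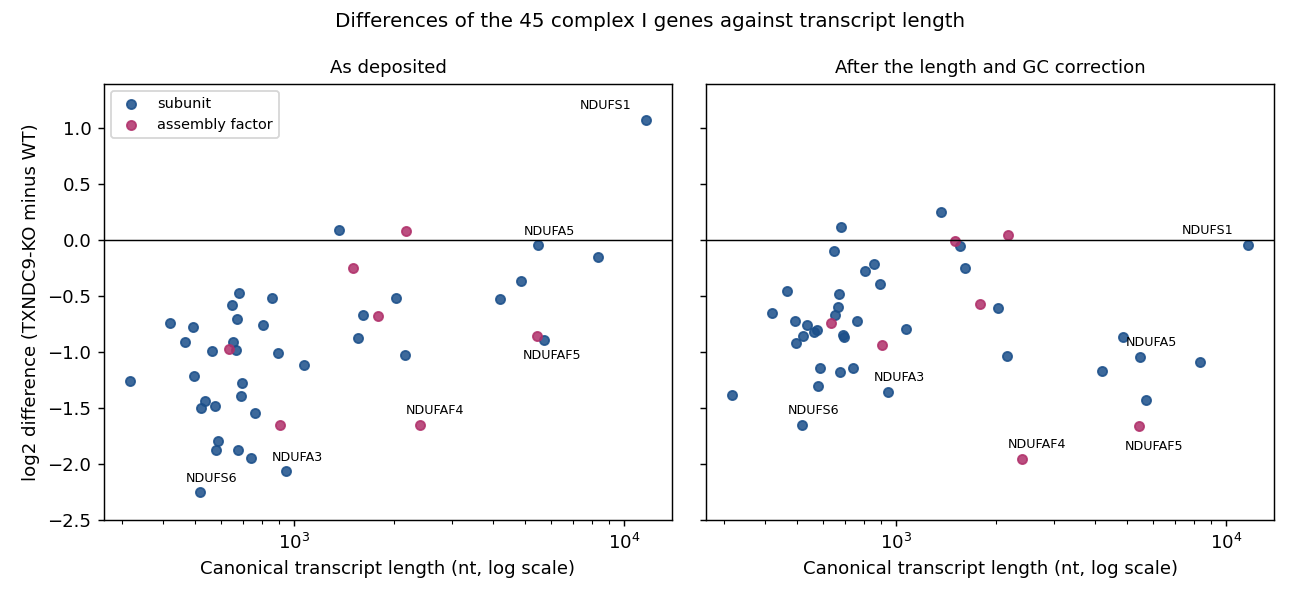
Log2 difference between groups against canonical transcript length (log scale) of the 45 genes, as deposited at left and after the length and GC correction at right; blue points are subunits and purple points assembly factors. NDUFS1, at 11660 nt, goes from 1.07 to −0.039, while NDUFAF4 stays under −1.6 in both panels.

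Exons of 16 members overlap those of another annotated gene, including 9 of the 20 members called in either direction. NDUF pseudogenes took little signal, with 8 of 59 rows above 0 in any library and NDUFB8P2 the highest, at 3.99 FPKM.

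Sequence before the start site was compared because nuclear respiratory genes are known targets of NRF1, of ETS-family factors such as GABP and of YY1. RefSeq windows of GRCh38.p14, 250 bases before to 50 after the start, were found for 38 of 45 members. NDUFA4, NDUFAF6, NDUFB5, NDUFB9, NDUFC2 and NDUFS5 were among those not matched. A single window was kept for each gene, and not every window lay at the end of the annotated gene. That of NDUFA5 lay outside the gene, and those of NDUFS3 and NDUFV3 lay inside it. The start site in use in these cells was not measured. The following stretches end at the base before the start and show the member with the largest fall, the factor with the largest fall after correction, and a pair of distal arm subunits, 1 with and 1 without a match. Capitals mark a match on either strand to the letters searched, GCATGCGC for NRF1 in NDUFS6 and CCGGAAG for ETS in NDUFAF4 and NDUFB7.
NDUFS6, chr5:1801347-1801406, plus strand: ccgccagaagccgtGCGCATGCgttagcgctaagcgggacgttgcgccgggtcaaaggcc
NDUFAF4, chr6:96897892-96898091, minus strand: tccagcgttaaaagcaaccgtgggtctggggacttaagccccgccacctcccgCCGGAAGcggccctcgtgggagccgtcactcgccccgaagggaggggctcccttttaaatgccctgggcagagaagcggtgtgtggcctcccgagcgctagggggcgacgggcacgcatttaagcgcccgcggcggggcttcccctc
NDUFB7, chr19:14572067-14572266, minus strand: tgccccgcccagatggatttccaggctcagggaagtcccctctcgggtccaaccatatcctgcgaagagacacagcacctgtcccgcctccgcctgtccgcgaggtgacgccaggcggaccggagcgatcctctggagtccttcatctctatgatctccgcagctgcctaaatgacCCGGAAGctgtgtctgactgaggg
NDUFB10, chr16:1959338-1959537, plus strand: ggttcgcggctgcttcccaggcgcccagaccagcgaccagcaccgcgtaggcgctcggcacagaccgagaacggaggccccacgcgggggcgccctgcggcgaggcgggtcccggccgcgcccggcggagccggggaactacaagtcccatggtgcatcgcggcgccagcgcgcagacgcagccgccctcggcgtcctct

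The NRF1 letters begin 46 bases before the start in NDUFS6, and the ETS letters 147 bases before it in NDUFAF4 and 24 in NDUFB7. In the whole windows, the NRF1 letters occurred in 7 of 38 members (18.4%), against 5.88% of tested genes with a window and 3.27% of all 27305 windows. The YY1 letters AAGATGGC occurred in 6 (15.8%), against 5.82% and 3.03%. The ETS letters occurred in 6 (15.8%), against 20.5% and 10.7%, and the E-box CACGTG in 4 (10.5%), against 10.5% and 7.43%. Matches on both strands were counted, and NRF1 matches overlapped each other in NDUFA8, NDUFAF5 and NDUFB4. The median log2 difference of members with and without the NRF1 letters was −1.11 and −0.91, that of members with and without the ETS letters −1.22 and −0.91, with and without the YY1 letters −1.33 and −0.91, and with and without the E-box −1.51 and −0.91. Over all tested genes with a window, the medians with each motif were −0.14, −0.17, −0.20 and −0.088 in that order, and those without it lay between −0.069 and −0.046. A match describes letters in a window and shows no binding.

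The complex I genes were set beside the other respiratory complexes. In complexes III, IV and V, 3 of 9, 7 of 10 and 7 of 16 listed nuclear genes were called lower and 0 higher. Of all genes tested, 15.3% were called lower and 14.2% higher. The medians of complexes III, IV and V were −0.88, −1.11 and −0.93, beside −0.088 over all genes tested. The list of complex V includes ATPIF1, an inhibitor of the enzyme and not a subunit, which was among those called lower. Complex II, which takes electrons from succinate and pumps no protons, had 0 of 4 called in either direction and a median of −0.082. One of its members, SDHB, passed the p threshold with a log2 difference of −0.96. Over complexes II to V, 17 of 39 genes were called lower, next to 17 of 38 complex I subunits, and no test between the lists was run. After rescaling to TPM the medians of complexes III, IV and V were still under 0 (−0.20, −0.43 and −0.25), while that of complex II was 0.60. The median of all genes tested was then 0.59. Under TPM 1 gene of complex V was called lower, beside 3.37% of all genes tested. With the length and GC correction, 1, 1 and 4 genes of complexes III, IV and V were called lower and 0 of complex II. In that fit 12 of 38 complex I subunits were called lower, beside 8.70% of all genes. The largest differences without these changes were those of ATP5D (−1.72), ATP5J (−1.67) and ATPIF1 (−1.58) in complex V. In complex IV the largest was that of COX5B (−1.36).

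Assembly partners that carry other names were taken as a list of 10. Of these genes, 1 was called lower, beside 15.3% of all genes tested. By adjusted p alone 5 were lower and 1 higher, beside 27.1% and 23.7% of all genes tested. The median was −0.68, beside −0.088 over all genes tested. ECSIT, which works with NDUFAF1 and ACAD9, was 47.2 and 61.8 FPKM in WT and 21.8 and 22.5 FPKM in TXNDC9-KO, a log2 difference of −1.28 (SE 0.15, adjusted p = 0.00104), and it was not called after rescaling to TPM (−0.61) or the length and GC correction (−0.45). ACAD9 (−0.87) was lower by p alone and TMEM126B (−0.064, adjusted p = 0.686) was not. NUBPL, which delivers iron-sulfur clusters to complex I, was 4.51 and 4.37 FPKM in WT and 7.23 and 8.29 FPKM in TXNDC9-KO, a log2 difference of 0.79 (SE 0.13, adjusted p = 0.00303) short of 2-fold, which was called higher under TPM (1.47). The median of the 10 was −0.0039 under TPM.

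**Figure D4:**
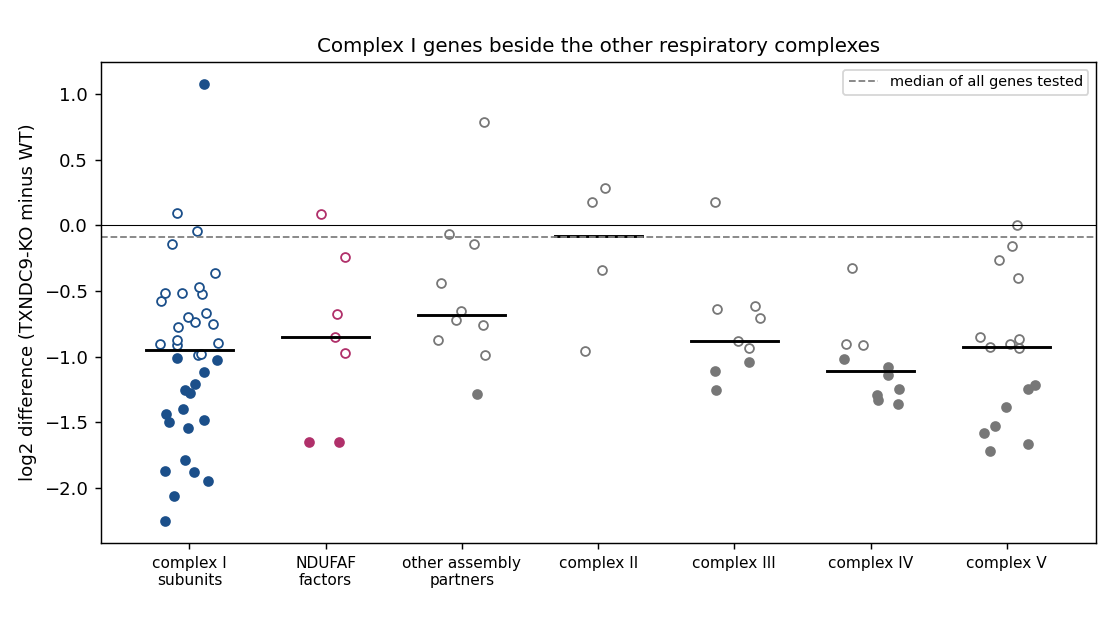
Log2 difference between groups for complex I subunits, NDUFAF factors, 10 other assembly partners and listed nuclear genes of complexes II to V. Each point is 1 gene, filled where called. A bar marks the median of each list and a dashed line the median of all genes tested (−0.088). Medians of complexes I, III, IV and V lie between −1.11 and −0.88, that of complex II at −0.082; rescaling to TPM raises the median of all genes by 0.67.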

How the data were processed

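Per the labels and the study's methods, the authors prepared libraries from polyadenylated RNA, mapped reads to hg38 with TopHat2 and computed expression with Cufflinks and Cuffdiff. Versions and strand settings are not given in the sources used here. The deposited values are FPKM for 2 WT and 2 TXNDC9-KO libraries. The authors' averages, fold changes, p-values and q-values were not used. FPKM are not counts, so depth is unknown and no counting intervals are given.

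In the table each identifier occurred 4 times and stood out of register with its symbol (57979 of 231916 lines held values). The order was restored, after which the symbols of all 45 members matched GENCODE release 44 by identifier.

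The members, gene lists and tests were chosen with earlier results of these data known. The test was limma 3.58.1 (R 4.3.3, trended prior variance) on log2(FPKM + 0.1) for the 13246 genes averaging above 1 FPKM, and p-values were adjusted over all of these by Benjamini-Hochberg. Calls required an adjusted p under 0.01 and at least 2-fold, the study's thresholds. limma was used since Cuffdiff cannot be run on FPKM. Fold changes on this scale understate low genes. An exact permutation test of 2 against 2 libraries cannot go below 0.33. Genes named with the value of every library were the core subunits, all factors, the 2 largest and 2 smallest differences of each accessory class, NDUFA12, NDUFAB1, NDUFA4, NDUFS5, and any estimate above 0. The values of 1 member are not reported here, though it is in the counts and medians over the members. Canonical transcript lengths and GC content came from GENCODE for 13112 genes, and a loess curve of span 0.3 was fitted per library for the correction. The promoter letters were chosen after the data were seen. Alternatives were pseudocounts of 1 and 0.01, other filters, TPM, median centring, a replicate block, each library left out, no trend and an adjusted p under 0.05. For genes other than the members, TPM and the correction were added after seeing the data. The steps were tested on simulated data. Other steps used numpy 2.4.6 and pandas 2.3.3 under Python 3.11.15, and figures matplotlib 3.10.9.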

Additional observations from a re-analysis of the deposited data

How the results depend on the processing

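The median log2 difference of subunits stayed under 0 in every alternative run, from −1.12 to −0.78 with a library left out and at −0.27 under TPM, and that of assembly factors was −0.18 under TPM. The 17 subunits called lower became 10 with no filter on low values, 6 under TPM and 23 with median centring, and ranged from 0 to 22 with a library left out. The 2 factors called lower became 0 under TPM and 3 with median centring, and ranged from 0 to 4 with a library left out. The 1 subunit called higher became 0 with median centring and with the length and GC correction, with or without the replicate block, and ranged from 0 to 1 with a library left out. Without either TXNDC9-KO library limma called no gene at all (7129 and 7307 genes at an unadjusted p under 0.05), with a smallest adjusted p among members of 0.0237 and 0.0232. In these fits the lone library was assumed to vary like the other group. Median centring gave 2601 lower and 1452 higher genes in the whole table, and the length and GC correction 1141 and 785. Of all genes, 15.3% were called lower without these changes, 5.37% with no filter, 3.37% under TPM and 19.6% with median centring. The counts of members above stand beside these shares.

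Under TPM estimates turned from under 0 to above it for 10 of the members reported, namely NDUFAF6 (0.0012), NDUFA2 (0.10), NDUFB5 (0.16), NDUFV2 (0.16), NDUFA4 (0.16), NDUFB8 (0.21), NDUFA10 (0.32), NDUFAF1 (0.43), NDUFA9 (0.54) and NDUFA5 (0.63), by the construction of the rescaling, which raises genes well above 0 FPKM by about the same amount. Median centring took NDUFAF7 to −0.055 and NDUFB6 to −0.047. Leaving out a library moved NDUFB6 between −0.091 and 0.28 and NDUFA5 between −0.20 and 0.11. The length and GC correction took NDUFB8 to 0.12 and NDUFS1 to −0.039, without and with the replicate block. The cause of these changes was not tested. With the replicate number as a block, 17 subunits and 2 factors were called lower and 1 subunit higher, and the block changed no call. Across genes, the deviations of same-numbered libraries had a correlation of −0.0904. With 2 libraries in each group, this cannot show whether same-numbered libraries were handled together. Replicate 2 lay above replicate 1 in 43 of 45 members in WT and in 40 in TXNDC9-KO. Over the 13246 genes tested it did so in 8294 and 8852. Of 660 values of single members recomputed under an alternative, 531 kept their direction and their side of the threshold. The number of libraries, 2 in each group, and the unknown depth limit the precision of all values.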

Other observations

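Regulators of nuclear respiratory genes moved in both directions, and 8 of 9 listed passed the filter. TFAM, which packages and transcribes mitochondrial DNA, was 19.9 and 17.6 FPKM in WT and 42.7 and 45.8 FPKM in TXNDC9-KO, a log2 difference of 1.24 (SE 0.11, adjusted p = 0.000610, limma with Benjamini-Hochberg adjustment). PPARGC1A, the coactivator PGC-1 alpha, was 1.52 and 1.22 FPKM in WT and 4.85 and 5.28 FPKM in TXNDC9-KO, a log2 difference of 1.82 (SE 0.19, adjusted p = 0.000790). Its relative PPRC1 was the 1 regulator called lower, at 34.8 and 40.0 FPKM in WT and 17.3 and 17.6 FPKM in TXNDC9-KO, a log2 difference of −1.09 (SE 0.11, adjusted p = 0.000764). YY1 (0.98) and GABPA (0.76) were higher by adjusted p but short of 2-fold, while NRF1 was 7.94 and 7.50 FPKM in WT and 7.90 and 8.11 FPKM in TXNDC9-KO, a log2 difference of 0.052 (adjusted p = 0.688). Log2 differences of GABPB1 (−0.35) and ESRRA (−0.41) did not pass the threshold, and both were above 0 under TPM (0.33 and 0.26). With the length and GC correction, TFAM (0.35) and PPARGC1A (0.93) were no longer called, PPRC1 (−1.20) still was, and GABPB1 (−1.11) was called lower. YY1 stood at 0.31 and GABPA at −0.14 with that correction, and both were called higher under TPM (1.66 and 1.43). PPRC1 was not called under TPM (−0.41).

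Genes with names near those of the members behaved unlike one another. NDUFA4L2, a paralog of NDUFA4 known as a hypoxia-responsive gene, was 7.34 and 8.55 FPKM in WT and 0.633 and 0.0603 FPKM in TXNDC9-KO, and was called lower with a log2 difference of −4.55 (SE 0.69, adjusted p = 0.00237). Its TXNDC9-KO replicates lay far apart, and the size of the fold depends on the pseudocount of 0.1. NDUFAF8, an assembly factor listed under its older symbol C17orf89, was 186 and 244 FPKM in WT and 167 and 182 FPKM in TXNDC9-KO, a log2 difference of −0.28 (SE 0.16, adjusted p = 0.173), or 0.40 under TPM.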
